A study of Mus musculus with 8 samples.

Results

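Heme synthesis and iron handling were followed here through 30 genes, chosen by name for their role. The list held the enzymes and mitochondrial carriers that make heme, the proteins that bring iron into the cell, the ferritins that store it, the exporters of iron and heme, the enzymes that break heme down, and the proteins that sense iron or build iron-sulfur clusters. Of the 30 genes, 28 had a row under their name among the 47493 genes of the table, and Abcb10 and Flvcr1 were not analysed here. RNA came from endogenous CD8+ T cells (en-T cells) of 4 female C57BL/6 mice aged 6 to 8 weeks. There were 4 IL-18Rαhi-enriched and 4 flow-through libraries, 8 in all. An enriched and a flow-through library of the same number were read as 1 mouse, which the labels do not state. Every mouse, and so both fractions, had received 200000 B16F10 melanoma cells on day 0, 300 mg/kg cyclophosphamide on day 3, 2000000 Thy1.1 Pmel-1 T cells specific for the melanoma antigen gp100 on day 5 with 10000 IU of IL-2 for 3 days, and 200 µg of the anti-CD4 antibody GK1.5 weekly from day 10. On day 25 inguinal lymph nodes and spleen were taken from each animal and treated with red-cell lysis buffer, Thy1.1-negative CD8+ T cells were purified with beads, and a column retained the cells that carried most IL-18Rα, the receptor chain for interleukin-18. The flow-through is therefore the remainder of the same cell preparation and no separate treatment arm.

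Heme is built by a chain of enzymes that begins and ends in the mitochondrion, and erythroid precursors run this pathway far faster than any other cell because they fill themselves with hemoglobin. They take up iron as transferrin through the transferrin receptor, reduce it in the endosome and pass it to the mitochondrion. T cells use the same housekeeping pathway on a smaller scale, and dividing T cells need transferrin iron for their DNA synthesis and respiration. Macrophages of the spleen do the reverse, as they break down the heme of old red cells with heme oxygenase and export or store the iron.

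Several of these mRNAs carry an iron-responsive element, a hairpin that iron regulatory proteins bind when iron is scarce. In a 5′ UTR the bound hairpin blocks translation, and in the 3′ UTR of the transferrin receptor it protects the mRNA from decay. The hairpins are shown because they mark genes below that can come under this control, through mRNA decay for Tfrc and through translation for a 5′ UTR. Neither iron nor the binding of these proteins was measured. Annotated UTRs in GENCODE M21 (GRCm38) were searched for a bulged C, 5 paired bases and a loop of CAGTG with a last base other than G. At least 3 pairs were also required in the stem below the bulge, and G-T pairs were allowed. Such hairpins were found in 5 of the 30 genes, against 32 of 21877 protein-coding genes searched (0.146%). The genes were chosen by name for their iron roles, and several were already known to carry this element. The higher share among them was therefore set in advance and is no result of these data. Each is given over 27 bases on the mRNA strand with T for U, and capitals mark the bulged C and the 6 bases of the loop.
Alas2, 5′ UTR, exon 1, chrX:150547459-150547485 (+): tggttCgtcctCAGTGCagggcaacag
Fth1, 5′ UTR, exon 1, chr19:9982733-9982759 (+): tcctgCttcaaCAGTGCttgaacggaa
Ftl1, 5′ UTR, exon 1, chr7:45459780-45459806 (-): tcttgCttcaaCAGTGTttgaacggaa
Slc40a1, 5′ UTR, exon 1, chr1:45925466-45925492 (-): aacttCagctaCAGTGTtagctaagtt
Tfrc, 3′ UTR, exon 19, chr16:32631220-32631246 (+): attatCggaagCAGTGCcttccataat
Tfrc, 3′ UTR, exon 19, chr16:32631599-32631625 (+): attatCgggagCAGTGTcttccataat
Tfrc, 3′ UTR, exon 19, chr16:32631664-32631690 (+): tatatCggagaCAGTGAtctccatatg
Tfrc, 3′ UTR, exon 19, chr16:32631711-32631737 (+): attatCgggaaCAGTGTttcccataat
Tfrc alone held 4 such hairpins, all in its last exon. No match elsewhere says only that these letters were not found under this rule.

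The values are FPKM, fragment numbers divided by transcript length and by the depth of the library, and the depth was estimated at 14500000 to 17700000 fragments per library. Il18r1, the gene of the receptor chain used for the enrichment, stood at 22.2 to 37.2 FPKM in the flow-through and at 106.6 to 116.0 FPKM in the enriched libraries (log2 fold change 1.85 ± 0.15 SE, n = 4 per fraction, limma adjusted p = 0.000291), so the labels and the selected gene went together. Cd8a was at 179 FPKM in flow-through replicate 1, whereas the remaining libraries had 297 to 385 FPKM. That replicate stood apart, with the lowest summed level of 8 CD8 T-cell genes and the highest summed level of 19 erythroid genes. Replicate 1 was also the highest of its 4 libraries for 24 of the 28 heme and iron genes in the flow-through and for 22 in the enriched fraction, against 34.0% and 29.2% of all genes tested. 

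Most heme and iron genes were lower in the enriched fraction of the same mouse, while heme oxygenase went the other way. Of the 28 genes, 21 were lower in the enriched library in all 4 mice, against 30.6% of the 12166 genes tested, and 3 were higher in all 4 mice, against 29.2%. Levels also differed widely between mice. Without the mouse as a block, limma with Benjamini-Hochberg adjustment called 4 of the 28 lower (Tfr2, Steap3, Slc48a1 and Abcg2). That share was near the background of 13.7% of all genes. It called 2 of the 28 higher (Hmox1 and Hmox2), a share below the background of 14.1%. With the mouse as a block, 19 were lower against a background of 22.7% and 3 were higher against 22.2%. These shares are also the background of the counts by role and by list below. The median log2 fold change of the 28 was -0.50, and that of all genes tested was -0.02. Libraries of the fractions did not overlap for 4 genes that were lower, where 15.9% of all genes were so, and for 2 that were higher, where 16.4% were.

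In bulk RNA, fewer cells of a type and less RNA per cell cannot be told apart, and this holds for every value here. The summed level of the 19 erythroid genes ran from 1186 to 3704 FPKM in the flow-through and from 262 to 1094 FPKM in the enriched libraries. Most of that sum was Car1 and Car2, at 1359 and 912 FPKM in flow-through replicate 1. Log2 fold changes in this list ran from -2.61 for Car1 to -0.16 for Slc4a1. These genes were named after their values were seen. The part of the 19 erythroid genes in the heme and iron differences was not tested. The summed level of the 8 CD8 T-cell genes ran from 1321 to 2500 FPKM in the flow-through and from 2529 to 2715 FPKM in the enriched libraries. Dividing each library by the level of these T-cell genes moved the median of all genes to -0.37, and 3 of the 28 genes were then called lower (12.0% of all genes) and 1 higher (4.28%). With the block added to that scaling, 20 were lower (22.1%) and 1 was higher (4.95%). Leaving out both libraries of mouse 1, without the block, gave 9 lower (12.8% of all genes) and 1 higher (14.7%).

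**Figure D1:**
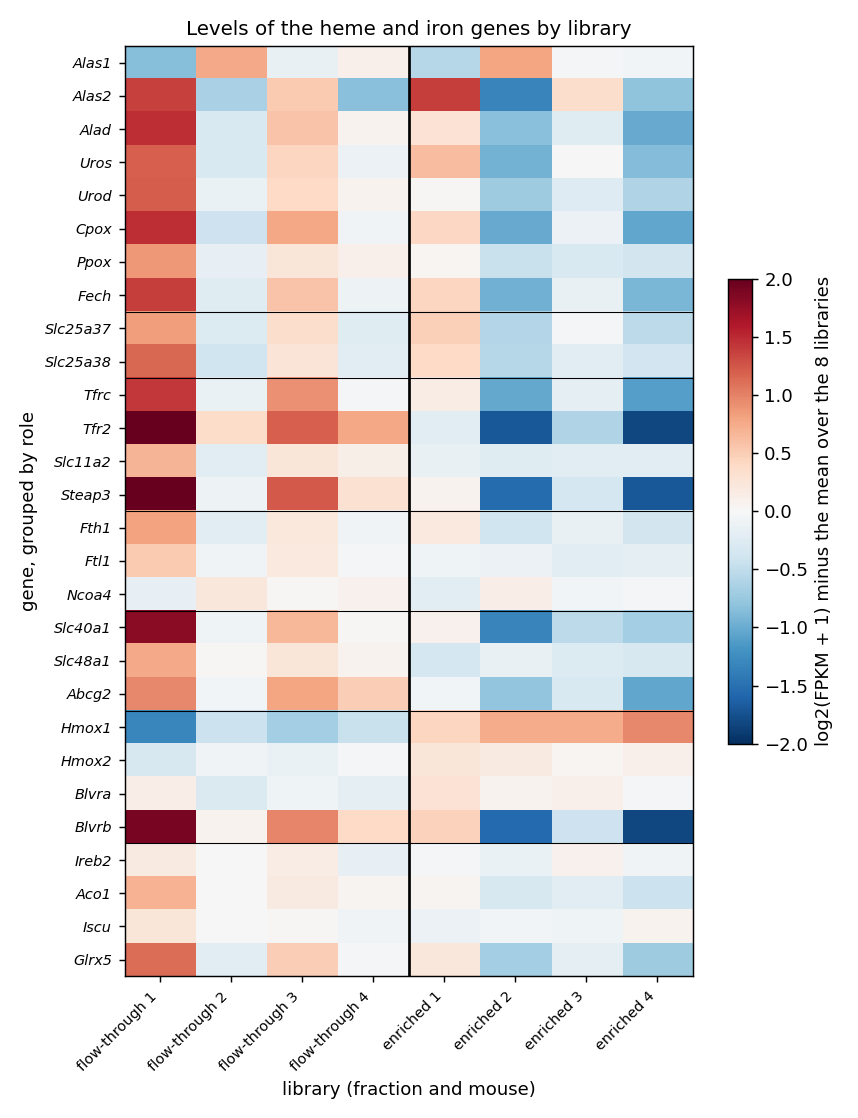
Level of the 28 heme and iron genes in each of the 8 libraries, as log2(FPKM + 1) minus the gene's mean over the libraries, with genes in rows grouped by role and libraries in columns (flow-through on the left of the black line, enriched on the right). Mouse 1 is the reddest of the 4 mice for 24 of the 28 genes in the flow-through and for 22 in the enriched libraries, and Hmox1 is blue in the flow-through and red in the enriched libraries.

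The first step of heme synthesis, made by 2 different genes, did not pass the test in either fit, while all later enzymes of the list were lower within each mouse. Alas1, the aminolevulinate synthase of all tissues and the rate-limiting step outside erythroid cells, stood at 19.4, 60.7, 32.2 and 38.4 FPKM in the flow-through of mice 1 to 4 and at 23.7, 62.2, 34.8 and 34.4 FPKM in the enriched fraction. The fractions overlapped entirely, and the log2 fold change was 0.07 ± 0.37 SE (adjusted p = 0.907, with the block 0.541), and it turned to -0.31 under T-cell scaling. Alas2, the erythroid form whose mRNA carries the first hairpin above, stood at 13.7, 2.63, 7.18 and 2.20 FPKM in the flow-through and at 13.8, 1.27, 6.25 and 2.25 FPKM in the enriched libraries. It was the second lowest of the 28 genes in the flow-through and the lowest in the enriched fraction, with a log2 fold change of -0.21 ± 0.67 SE (adjusted p = 0.838, with the block 0.254). Mouse 1 was the lowest for Alas1 and the highest for Alas2 in both fractions, and the ratio of Alas1 to Alas2 within a library ran from 1.41 to 23.1 in the flow-through and from 1.72 to 49.0 in the enriched fraction. Apex2 shares 12.9% of the exon bases of Alas2 on the other strand and had a mean of 7.43 FPKM, so the low values of Alas2 are uncertain.

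The enzymes after the first step were lower in all 4 mice. Alad, which joins aminolevulinate to porphobilinogen, stood at 235, 68.0, 125 and 87.9 FPKM in the flow-through and at 103, 46.3, 70.6 and 41.0 FPKM in the enriched fraction. Its fractions overlapped across mice, but each enriched library held 0.438 to 0.681 times the level of its own flow-through (log2 fold change -0.91 ± 0.41 SE, adjusted p = 0.131, with the block 0.00137). Cpox, which forms protoporphyrinogen in the mitochondrion, went from 147, 39.1, 89.5 and 49.4 FPKM to 69.5, 25.3, 47.8 and 25.0 FPKM (adjusted p = 0.188, with the block 0.000676). Fech, the ferrochelatase that inserts iron into the finished ring, had a flow-through mean of 38.3 ± 21.9 FPKM (SD, n = 4) and an enriched mean of 21.0 ± 10.5 FPKM, with within-mouse ratios of 0.505 to 0.599 (adjusted p = 0.186, with the block 0.000496). Urod, Uros and Ppox, which act between these steps, had log2 fold changes of -0.77, -0.60 and -0.54, and only the block brought them past the threshold. No heme enzyme of the 8 was called without the block, where 2 had an unadjusted p under 0.05, and 6 were called lower with it, with a median of -0.69 over the 8. B4galt3 shares 17.5% of the exon bases of Ppox on the other strand.

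The 2 mitochondrial carriers had smaller fold changes and passed only with the block (0 without it at an unadjusted p under 0.05). Slc25a37 (mitoferrin-1), which brings iron into the mitochondrion, had a flow-through mean of 24.8 ± 9.83 FPKM and an enriched mean of 19.3 ± 7.33 FPKM, a log2 fold change of -0.34 (adjusted p = 0.441, with the block 0.00624). Slc25a38, the carrier that brings in the glycine of the first step, was at 47.1 ± 25.3 and 33.6 ± 10.9 FPKM (adjusted p = 0.415, with the block 0.0256).

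**Figure D2:**
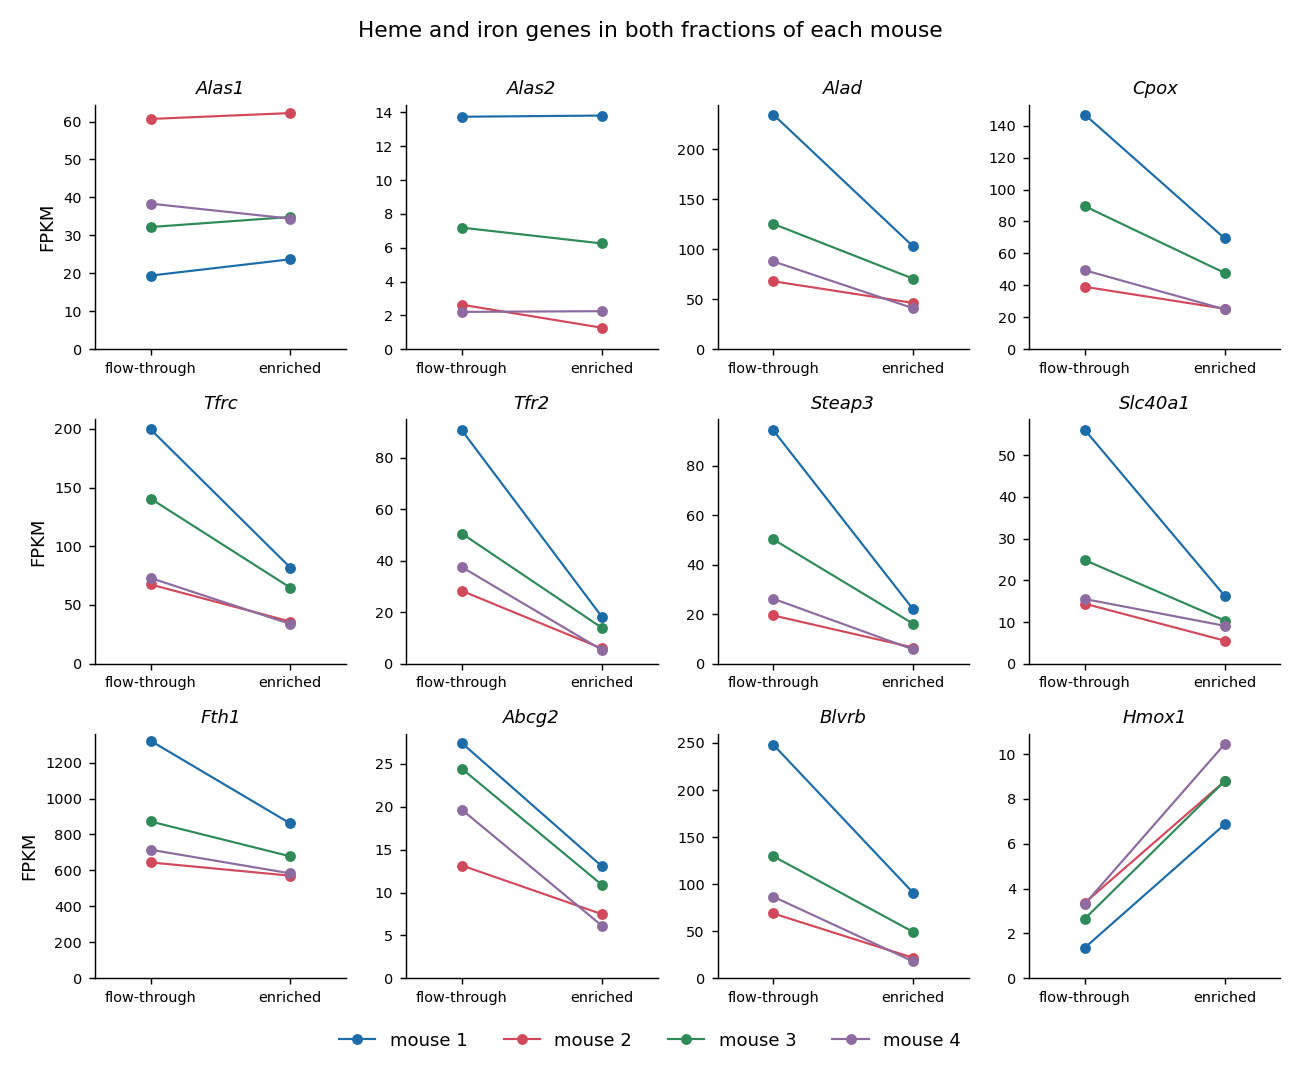
FPKM of 12 heme and iron genes in the flow-through (left) and enriched (right) library of each mouse, with a line per mouse and a linear axis that starts at 0 in each panel. Lines for Alas1 are nearly flat, and those for Alas2 are nearly flat in mice 1 and 4 and fall a little in mice 2 and 3. Those for Tfr2, Steap3, Abcg2 and Blvrb drop in every mouse, and those for Hmox1 climb in every mouse.

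The genes of iron uptake had the lowest median fold change of the 7 roles. Tfr2 (chr5:137569840-137587481), the second transferrin receptor, which binds iron-loaded transferrin in erythroid precursors and hepatocytes, stood at 90.6, 28.3, 50.5 and 37.5 FPKM in the flow-through of mice 1 to 4 and at 18.3, 5.95, 14.0 and 5.39 FPKM in the enriched fraction. Every flow-through library was above every enriched one, the flow-through mean was 4.74 times the enriched mean, and the log2 fold change was -2.17 ± 0.45 SE (adjusted p = 0.0098, and no more than 0.0318 in the 16 alternatives run). Steap3 (chr1:120190757-120272705), the ferrireductase that reduces transferrin iron in the endosome, stood at 94.2, 19.5, 50.2 and 26.2 FPKM against 22.0, 6.53, 16.1 and 5.76 FPKM. The lowest flow-through library lay below the highest enriched one, and the log2 fold change was -1.77 ± 0.56 SE (adjusted p = 0.0449). It was lost when any library but flow-through replicate 2 or enriched replicate 1 was left out, with adjusted p values up to 0.117. Among the 28 genes ordered by mean FPKM, Tfr2 went from rank 9 to rank 24 and Steap3 from rank 10 to rank 23.

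Tfrc, the transferrin receptor of all dividing cells and the carrier of the 4 hairpins in its 3′ UTR, stood at 200, 67.5, 141 and 73.0 FPKM in the flow-through and at 81.9, 35.9, 64.8 and 33.8 FPKM in the enriched fraction. Each mouse had 0.41 to 0.532 times its flow-through level, a narrow range around a log2 fold change of -1.09 ± 0.41 SE, which was not called without the block (adjusted p = 0.079) and was called with it (0.000263). Of 18 proliferation genes, 6 were called higher without the block (14.1% of all genes) and 15 with it (22.2%), and the median log2 fold change of the list was 0.40. Mki67 was at 28.8 to 57.9 FPKM in the flow-through and at 54.5 to 76.2 FPKM in the enriched libraries, and its call (adjusted p = 0.0275) was lost in 9 of 16 alternatives, at up to 0.4. Tfrc exceeded Tfr2 by a ratio of 1.95 to 2.78 within the flow-through libraries and of 4.47 to 6.28 within the enriched ones, a ratio that no scaling of a library can move. Slc11a2 (DMT1), which carries endosomal iron into the cytosol, was at 26.3 to 50.1 FPKM in the flow-through and at 26.1 to 28.0 FPKM in the enriched fraction (adjusted p = 0.1, with the block 0.0374). All 4 uptake genes were thus lower with the block and 2 without it, and their median log2 fold change was -1.43.

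Ferritin, which stores iron in a shell of heavy and light chains, was by far the most abundant product. The light chain Ftl1 stood at 1712, 1131, 1368 and 1172 FPKM in the flow-through and at 1126, 1102, 1031 and 1037 FPKM in the enriched libraries. The libraries did not overlap, but the gap was narrow (1131 against 1126 FPKM), and the log2 fold change of -0.31 ± 0.13 SE did not pass (adjusted p = 0.114, with the block 0.0518). The heavy chain Fth1, the ferroxidase, stood at 1322, 644, 872 and 715 FPKM against 861, 571, 678 and 583 FPKM (log2 fold change -0.36 ± 0.23 SE, adjusted p = 0.268, with the block 0.0153). Light exceeded heavy chain in every library, by 1.30 to 1.76 times in the flow-through and 1.31 to 1.93 times in the enriched fraction. Ncoa4, which takes ferritin to the lysosome, had a mean of 38.6 ± 4.40 FPKM and 36.1 ± 3.75 FPKM (adjusted p = 0.55). None of the 3 was called without the block in limma, where 1 had an unadjusted p under 0.05. Pseudogenes and relatives whose names begin with Ftl or Fth were listed at no more than 0.49 FPKM. Ferritin pseudogenes under other names were not searched. Gm10252 shares 26.5% of the exon bases of Ftl1 on the other strand and had no FPKM value.

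Of the exporters and heme transporters 2 of 3 were called lower without the block (13.7% of all genes) and all 3 with it (22.7%), with a median of -1.09. Abcg2 (chr6:58584523-58695676), a pump for porphyrins and drugs at the cell surface, stood at 27.4, 13.2, 24.4 and 19.7 FPKM in the flow-through and at 13.1, 7.49, 10.9 and 6.15 FPKM in the enriched fraction. Its fractions did not overlap, though the lowest flow-through and the highest enriched library nearly met, and the log2 fold change was -1.09 ± 0.27 SE (adjusted p = 0.0194, and 0.0523 to 0.058 without flow-through replicate 3, enriched replicate 2 or enriched replicate 4). Slc48a1 (chr15:97778520-97792692), which releases heme from the endosome and lysosome, went from 47.9, 28.6, 33.5 and 29.4 FPKM to 21.8, 25.3, 23.2 and 22.1 FPKM, again without overlap. The enriched libraries lay close together and flow-through replicate 1 far above the others (log2 fold change -0.54 ± 0.16 SE, adjusted p = 0.0334), and the call was lost without flow-through replicate 3 or any 1 enriched replicate and with T-cell scaling, at up to 0.0834. Slc40a1 (ferroportin), the only known exporter of iron from cells, whose 5′ UTR carries a hairpin, stood at 56.1, 14.4, 24.8 and 15.5 FPKM against 16.3, 5.53, 10.4 and 9.10 FPKM. Each enriched library was below its own flow-through, at 0.291 to 0.586 times, and the log2 fold change was -1.21 ± 0.44 SE (adjusted p = 0.072, with the block 0.00148).

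Heme breakdown was split. Hmox1 (chr8:75093621-75100589), the inducible heme oxygenase that opens the heme ring, stood at 1.36, 3.37, 2.66 and 3.32 FPKM in the flow-through and at 6.86, 8.79, 8.79 and 10.4 FPKM in the enriched libraries. Every enriched library was above every flow-through one, the mean was 3.26 times higher, and the log2 fold change of 1.43 ± 0.21 SE (adjusted p = 0.00271) was called in all 16 alternatives run, at no more than 0.0117. Within mice the ratio was 5.03, 2.61, 3.31 and 3.15. Hmox2 (chr16:4726361-4766742), the constitutive form, stood at 21.8, 26.0, 25.1 and 26.7 FPKM against 32.6, 31.3, 28.3 and 29.7 FPKM, without overlap. Its rise was small (log2 fold change 0.28 ± 0.09 SE, adjusted p = 0.039), was not called in 10 of 16 alternatives and turned to -0.09 under T-cell scaling. Cdip1 on the other strand shares 40.2% of its exon bases at a mean of 11.3 FPKM. The ratio of Hmox2 to Hmox1 within a library ran from 7.74 to 16.0 in the flow-through and from 2.84 to 4.75 in the enriched fraction.

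Macrophage markers were examined beside Hmox1. Of 13 listed, 9 were tested and 5 were called higher without the block (14.1% of all genes) and 8 with it (22.2%), and the summed level of the list ran from 115 to 392 FPKM in the flow-through and from 376 to 884 FPKM in the enriched libraries. Most of that sum was Lyz2, a lysozyme that granulocytic cells make as well, at 99.0 to 347 FPKM and 338 to 811 FPKM, which is named here after its values were seen. Cd68 was at 8.15 to 18.2 and 22.2 to 32.1 FPKM, without overlap (limma adjusted p = 0.0112). Adgre1, C1qa and C1qc were also called higher, at no more than 3.57 FPKM in any library. These, too, were named after their values were seen, and all 9 genes tested were higher in all 4 mice. Csf1r, the receptor that defines the lineage, was at 5.14 to 18.4 and 8.76 to 24.2 FPKM (adjusted p = 0.339, with the block 0.00273). Spic, which defines the red pulp macrophages that recycle heme, was at 0 to 0.336 FPKM in the flow-through and at 0.124 to 0.616 FPKM in the enriched libraries. The part of these cells in the level of Hmox1 was not tested.

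The biliverdin reductases, which turn the product of heme oxygenase into bilirubin, differed in direction. Blvrb, which also reduces flavins and is abundant in red cells, stood at 248, 68.8, 130 and 86.6 FPKM in the flow-through and at 90.8, 21.7, 49.2 and 17.8 FPKM in the enriched fraction. It was at 0.206 to 0.38 times the flow-through level of the same mouse, with a log2 fold change of -1.66 ± 0.56 SE that missed the threshold without the block (adjusted p = 0.0563) and passed with it (0.000414). Blvra, the form of most tissues, was at 24.8 to 33.6 FPKM against 29.98 to 37.5 FPKM, higher with the block (adjusted p = 0.035) and not without it (0.165), and its log2 fold change of 0.22 turned to -0.16 under T-cell scaling. The ratio of Blvra to Blvrb within a library did not overlap between the fractions, at 0.135 to 0.360 and 0.414 to 1.68.

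Of the 4 iron sensors and iron-sulfur genes, 2 were lower with the block and none without it (1 at an unadjusted p under 0.05 in limma). Glrx5, the mitochondrial glutaredoxin that hands on iron-sulfur clusters, was the third most abundant of the 28 genes and had a flow-through mean of 142 ± 62.7 FPKM and an enriched mean of 85.5 ± 27.7 FPKM (log2 fold change -0.68 ± 0.32 SE, adjusted p = 0.144, with the block 0.00134). Aco1, the aconitase that becomes an iron regulatory protein when it loses its cluster, was at 18.6 ± 4.71 and 13.1 ± 2.12 FPKM (adjusted p = 0.0781, with the block 0.00456). Ireb2, the other iron regulatory protein, was at 16.1 ± 1.82 and 15.1 ± 0.996 FPKM (adjusted p = 0.554, with the block 0.422). Iscu, the scaffold on which clusters are built, was at 41.4 ± 4.21 and 38.6 ± 2.33 FPKM (adjusted p = 0.436, with the block 0.418).

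**Figure D3:**
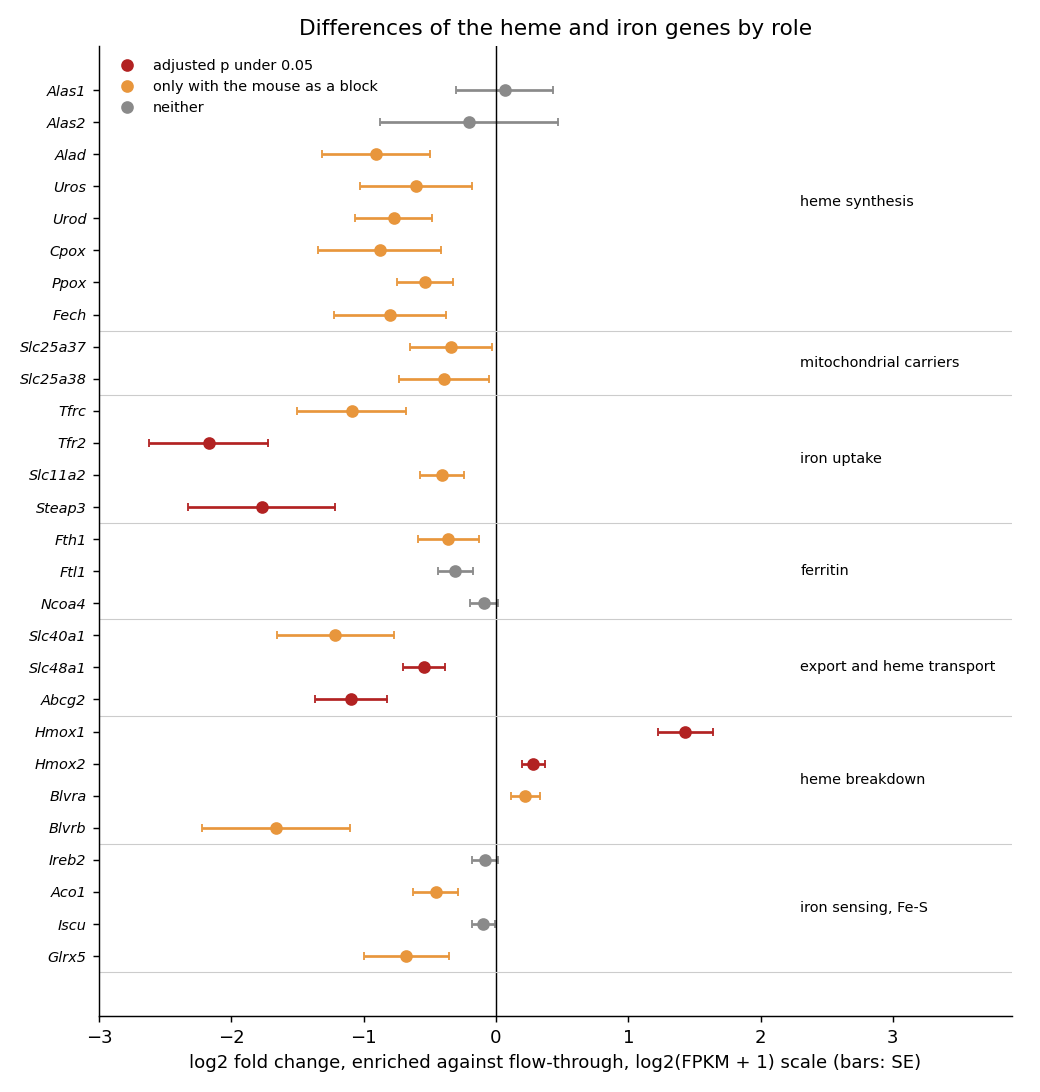
Log2 fold change of the 28 heme and iron genes, enriched against flow-through, on the log2(FPKM + 1) scale with the SE of the limma fit without the block as bars, ordered by role. Red points (6 genes) passed an adjusted p of 0.05, orange points passed only with the mouse as a block, and gray points passed in neither fit, with Tfr2 at -2.17 and Hmox1 at 1.43 as the ends of the range.

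The rest of the pathway was described from a list of 57 further genes, of which 54 had a row and 42 were tested. Without the block 7 of the 42 were called lower (13.7% of all genes) and 1 higher (14.1%), a share of lower genes near the background. With the block 22 were lower (22.7%) and 4 higher (22.2%), with a median log2 fold change of -0.26. Iron-sulfur cluster assembly held 5 of the 7, among 17 genes tested, and with the block 12 were lower and 1 higher, against the same shares of all genes. Hspa9, the mitochondrial chaperone of this assembly, stood at 190, 118, 169 and 124 FPKM in the flow-through and at 89.6, 81.7, 96.1 and 72.1 FPKM in the enriched fraction, without overlap (log2 fold change -0.80 ± 0.17 SE, adjusted p = 0.0104). Lyrm4, which holds the sulfur donor of the complex, had means of 12.2 ± 4.32 and 6.69 ± 1.04 FPKM (adjusted p = 0.0339, lost in 6 of 16 alternatives at up to 0.0936). Of 8 other genes of heme synthesis and porphyrin transport none was called without the block (2 at an unadjusted p under 0.05) and 5 were lower with it. Of 12 iron transport, storage and regulation genes tested, 1 was lower without the block, and 4 were lower and 1 higher with it.

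The heme transport, scavenging and heme-responsive regulators were split, with 1 of 5 lower and 1 higher, and with the block 1 lower and 2 higher. Nfe2l2 (NRF2), the oxidative stress regulator that can switch on Hmox1 and the ferritin genes, stood at 50.7, 35.1, 39.9 and 37.2 FPKM in the flow-through and at 24.2, 23.0, 22.4 and 22.4 FPKM in the enriched fraction (log2 fold change -0.79 ± 0.11 SE, adjusted p = 0.00251). Its libraries did not overlap between the fractions, and its part in the level of Hmox1 was not tested. Lrp1, the receptor for heme bound to hemopexin, stood at 0.543, 1.79, 0.573 and 0.706 FPKM against 2.50, 3.83, 3.24 and 4.72 FPKM (log2 fold change 1.29 ± 0.23 SE, adjusted p = 0.00574). Hamp, the gene of the hormone hepcidin, was at 0.573 FPKM or less in every library, and the mitochondrial ferritin Ftmt was listed at 0 throughout.

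Genes that mark other cell types were examined beside these genes. In the erythroid list 8 of 19 genes were called lower without the block and 18 with it, with a median log2 fold change of -1.55. Gata1, the master regulator of the erythroid lineage, stood at 117, 32.7, 64.2 and 43.2 FPKM in the flow-through and at 30.7, 8.13, 20.5 and 7.22 FPKM in the enriched fraction (log2 fold change -1.95 ± 0.52 SE, adjusted p = 0.0251, lost in 4 of 16 alternatives at up to 0.0719). Klf1, its partner at the globin genes, had within-mouse ratios of 0.203 to 0.367 (adjusted p = 0.0685, with the block 0.00034).

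Globins, for which erythroid cells make their heme, were not called without the block. None of the 4 was called by limma without the block (0 at an unadjusted p under 0.05) and 2 were lower with it, with summed levels of 202 to 1041 FPKM in the flow-through and 116 to 1133 FPKM in the enriched libraries. Hba-a1 was at 507, 72.2, 244 and 90.6 FPKM against 478, 46.5, 163 and 55.0 FPKM, and its log2 fold change was -0.50 ± 0.85 SE (adjusted p = 0.686, with the block 0.011). Hbb-bt was at 41.4, 29.5, 97.7 and 35.4 FPKM against 148, 19.1, 55.1 and 24.6 FPKM, with mouse 1 higher and the other 3 mice lower in the enriched library. The globin genes are near-identical copies, and reads may be split between them.

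Of 8 CD8 T-cell genes 1 was called higher without the block and 2 with it, while 6 were higher in all 4 mice, with a median log2 fold change of 0.40. Among mast cell, basophil and progenitor genes 3 of 9 were lower without the block (Kit, Gata2 and Cd34). With it 4 were lower and 3 higher (Cpa3, Fcer1a and Elane). Their summed level ran from 588 to 3101 FPKM in the flow-through and from 535 to 2966 FPKM in the enriched libraries. In mouse 2 it was above that of the CD8 T-cell genes, at 3101 against 2443 FPKM in the flow-through and 2966 against 2534 FPKM in the enriched library. Most of it was Mpo, Elane and Prtn3, at 1394, 726 and 855 FPKM in the flow-through of mouse 2. The mast cell and basophil genes Cpa3, Fcer1a and Ms4a2 were at 31.1, 10.6 and 8.35 FPKM there. These genes were named after their values were seen. Of 6 B-cell genes 1 was higher without the block and 2 with it. None of 3 megakaryocyte genes was called by limma without the block (0 at an unadjusted p under 0.05), and 1 was lower with it.

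**Figure D4:**
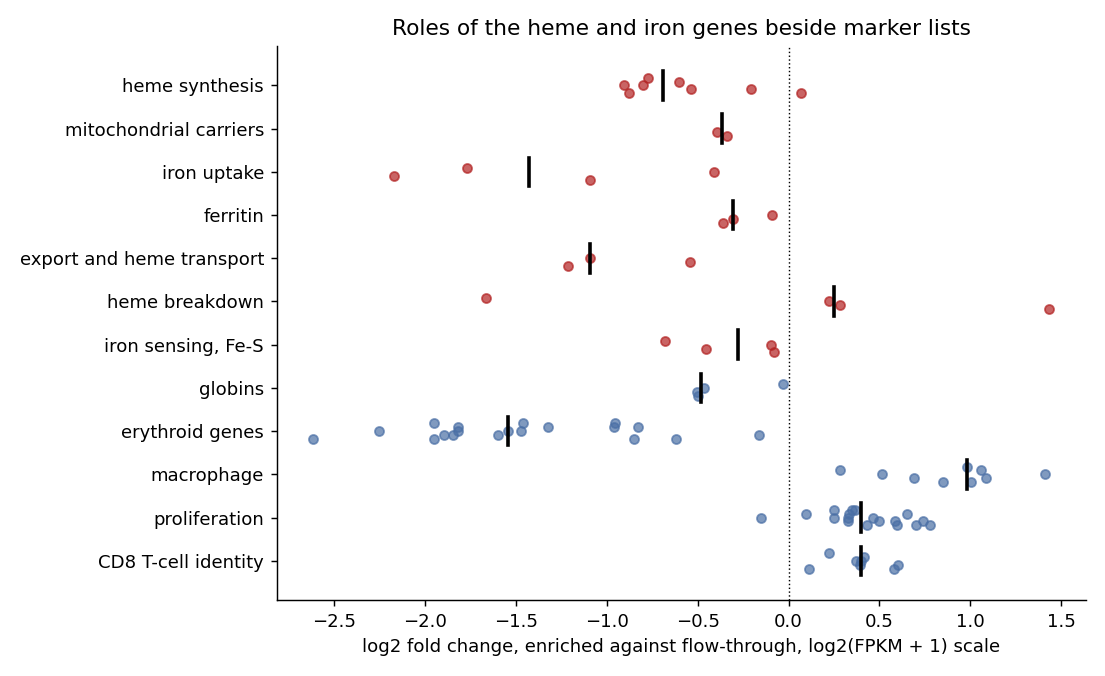
Log2 fold change (enriched against flow-through, log2(FPKM + 1) scale) of each tested gene, by role for the heme and iron genes (red) and by list for the marker genes (blue), with a black bar at the median. Iron uptake (median -1.43) and the erythroid genes (-1.55) lie farthest to the left, and the macrophage genes lie to the right of 0.

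Promoters were searched because erythroid transcription of heme genes is known to run through GATA1 and KLF1. RefSeq starts on GRCm38.p6 were found for 21 of the genes, with 38 windows from 250 bases before to 50 after the start, and both strands were read. The letters AGATAA or TGATAA were present in 5 of the 38 windows (13.2%) and in 18.6% of 32851 windows of all genes. The letters CCNCNCCC, whose matches can overlap each other, were present in 29 of 38 (76.3%) and in 49.5% of all. They take in the CACCC box but also GC-rich runs without it, such as GGGCGGGG in Alas2 below, so a match does not single out KLF1. Both kinds were found in 4 of the 38 (10.5%) and in 5.73% of all, and several windows belong to the same gene.

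The stretches of Alas2 and of 1 of the 4 starts of Steap3 that hold both kinds are shown, as a gene with little difference between the fractions and one with a large difference. Each runs from 30 bases before the first match to the end of the last, 5′ to 3′ on the strand of the gene, and capitals mark the matches, read here as their reverse complement.
Alas2, chrX:150547301-150547398 (+): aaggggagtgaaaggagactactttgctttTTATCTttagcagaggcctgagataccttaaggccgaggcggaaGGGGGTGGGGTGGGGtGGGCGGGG
Steap3, chr1:120271120-120271188 (-): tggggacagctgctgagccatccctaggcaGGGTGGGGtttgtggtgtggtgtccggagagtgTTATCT
Alas2 held 1 match of the first kind and 4 of the second, and this start of Steap3 held 1 of each. A match is a run of letters and not a binding site.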

How the data were processed

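RNA was measured in 4 IL-18Rαhi-enriched and 4 flow-through libraries, 1 of each per mouse, and groups and mouse numbers were taken from the labels. The deposited values are FPKM. The authors made stranded poly(A) libraries, sequenced 150 bp paired ends, mapped reads to mm10 with TopHat and estimated FPKM with Cufflinks 2.1.1 with correction for multiple mapping and fragment bias. No use of the strand in estimation was stated, so genes that overlap on opposite strands are uncertain. FPKM carries no exact depth. Genes of a single transcript of at least 1500 bases with an FPKM under 0.2 gave the worth of 1 fragment and so the depth.

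The fractions were compared in limma 3.58.1 (R 4.3.3), with a trend of variance on mean, on log2(FPKM + 1), without a block, and the 12166 genes that averaged 1 FPKM or more entered the fit. Benjamini-Hochberg adjustment ran over all of them, with a threshold of 0.05. Fold changes are on the log2(FPKM + 1) scale and understate the change of low genes. Both libraries of a number were read as the same animal, which the labels do not state. Their deviations from the fraction means correlated at 0.66, 0.589, 0.308 and 0.471 in mice 1 to 4. Libraries of different numbers correlated at -0.6 to 0.412. The fit with the mouse as a block is therefore given beside results it changes. Alternatives were other pseudocounts, filters and scalings, the block, and leaving out libraries. T-cell scaling with the block, and leaving out mouse 1, were chosen after seeing the data.

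The genes, their roles, and the pathway and marker lists were chosen with earlier results of these data known. All genes of the heme and iron list are accounted for, with values per library for those past the threshold at 5 FPKM or more in the higher fraction and for Fth1, Ftl1, Tfrc, Slc40a1, Hmox1, Alas1 and Alas2, and others were added for their role after their values were seen. Other pathway genes named are the 3 past the threshold with the largest change in each direction, besides Hamp and Ftmt. Gene positions are those of GENCODE M21, which held 98.9% of the gene identifiers. The values of 1 marker gene are not reported here, though its list includes it.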

Additional observations from a re-analysis of the deposited data

Results flagged for a closer look

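Lrp1, the hemopexin receptor, had 1.79 FPKM in the flow-through library of mouse 2, whereas the flow-through of mice 1, 3 and 4 had 0.543 to 0.706 FPKM, a gap of 0.87 of the range of that fraction. This was 1 of 82 groups of 4 libraries examined, where about 4.1 would stand apart at the chance rate of 1 in 20.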

How the results depend on the processing

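FPKM gives no exact depth, and 4 mice limit the precision. In limma 4 heme and iron genes were lower and 2 higher, and 7 other pathway genes were lower and 1 higher. The mouse as a replicate block gave 19 and 3, and 22 and 4. Without a filter on low values the counts were 2 and 1 (Steap3, Slc48a1 and Hmox2 were lost), and 3 and 2. With a mean of at least 5 FPKM, 0 other pathway genes were higher. T-cell scaling called 3 lower and 1 higher, and with the block 20 and 1, and 20 and 2 of the others, while 11 genes instead of 6 did not overlap. Without mouse 1 there were 9 lower and 1 higher, 2 other pathway genes higher, and 14 without overlap. The cause was not tested.

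Leaving out 1 library gave 1 to 10 heme and iron genes lower and 1 to 2 higher, 3 to 10 other pathway genes lower and 1 to 2 higher, and 6 to 13 without overlap. The count of lower genes rose to 10 without flow-through replicate 2, and was 1 or 2 without flow-through replicate 3 or enriched replicates 2, 3 or 4. Log2 fold changes that were not called turned sign in some of these fits, from -0.20 to 0.33 for Alas1, -0.70 to 0.22 for Alas2, -1.16 to 0.028 for Hba-a1 and -0.60 to 0.36 for Hbb-bt. Alas1 was at -0.0019 without mouse 1 and at -0.31 under T-cell scaling with or without the block, where Hmox2 was at -0.093 and Blvra at -0.16. Median-ratio scaling and a pseudocount of 0.1 FPKM changed no call among the 28 genes.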
